A study of Mus musculus with 4 samples.

Results

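The regions described here are 581 accessible regions of the mouse aorta that were found in both long and at least 1 short of the 4 peak lists of the study. They were chosen by presence: a peak of the control female list on chromosomes 1 to 19 that overlapped by at least 1 bp a peak of the VEDS male list and a peak of the control male or the VEDS female list, with at most 50% of its bases in the lower-case (repeat-masked) part of the mm10 reference. They are 581 of the 20655 control female peaks on these chromosomes, from 21176 peaks in all, and are termed core regions. Before the limit on masked bases there were 762. The 3 core regions just inside that limit had 49.9%, 41.7% and 41.6% of their bases masked, and the 3 peaks just outside it 51.1%, 51.3% and 54.2%.

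ATAC-seq was done on aortic nuclei at P60 from mice that were control (Col3a1+/+) or heterozygous for a glycine substitution in type III collagen (Col3a1G938D/+, a model of vascular Ehlers-Danlos syndrome, VEDS). There were 4 libraries, 1 for females and 1 for males of each genotype, each pooled from 2 mice, so that sex has no replicate within a genotype. All mice were of the C57BL/6J background, neither genotype received an agent, and all cell types of the vessel wall are mixed in each list. With 2 libraries against 2, an exact permutation test cannot go below p = 0.333, so genotypes were not tested.

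The lists differed in length, with 40483 peaks on chromosomes 1 to 19 in the VEDS male, 20655 in the control female, 1081 in the control male and only 468 in the VEDS female. The pileup at a summit (the number of fragments or cut sites stacked there), recovered from the fold enrichment and p-value of each peak, had medians of 22, 14, 7 and 6 over these lists in the same order. The control male list stands apart, since the median peak in it had 99.0% of its bases masked, against 3.28% to 8.88% in the other lists. As a check of the tissue, the promoters of the VSMC genes Acta2, Myh11, Tagln, Cnn1 and Lmod1 had a peak in both long lists, 5 of 5, and in neither short list. Endothelial markers had 0 of 5 in the control female list and 2 of 5 in the VEDS male list, and immune markers had 0 of 5 in every list. Fibroblast and adipocyte markers had 1 of 5 each in both long lists (Pdgfra and Fabp4 in the control female), and striated muscle markers had 1 of 5 in the VEDS male list only.

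Tn5 transposase inserts adapters where DNA is free of nucleosomes, and in most tissues the sites most often open are the promoters of genes that every cell uses. Many of these promoters carry a CCAAT box, which is bound by the trimeric factor NFY a short distance upstream of the transcription start site (TSS). A reference genome also holds sequence in several copies, such as tandem repeats, arrays of small RNA genes and nuclear copies of mitochondrial DNA, and reads from all copies can be placed on one of them.

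Both kinds of sequence occur among the core regions. The first set is shown because the CCAAT word was found more often in core promoters than in other promoters. It was taken from the 20 regions of highest mean rank over the long lists among those in both short lists. Shown are the 5 promoters among these with an NFY word in the 300 bp around the summit and no exon within the printed stretch. The word, in capitals, is CCAATCA or CCAATGA on either strand. Each stretch is read on the strand of the gene from GRCm38.
Ska2, chr11:87108898-87109004: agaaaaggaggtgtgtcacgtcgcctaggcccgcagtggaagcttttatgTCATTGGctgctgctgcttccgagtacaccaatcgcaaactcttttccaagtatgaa
Stat3, chr11:100939565-100939671: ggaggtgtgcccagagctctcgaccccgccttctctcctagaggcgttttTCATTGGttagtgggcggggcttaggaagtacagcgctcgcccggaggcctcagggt
Kmt5c, chr7:4739807-4739913: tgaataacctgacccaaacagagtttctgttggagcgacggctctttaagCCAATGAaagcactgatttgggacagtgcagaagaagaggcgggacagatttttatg
Cic, chr7:25268038-25268144: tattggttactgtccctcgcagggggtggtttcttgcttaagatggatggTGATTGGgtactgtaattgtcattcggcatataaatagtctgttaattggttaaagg
Kat6b, chr14:21500577-21500683: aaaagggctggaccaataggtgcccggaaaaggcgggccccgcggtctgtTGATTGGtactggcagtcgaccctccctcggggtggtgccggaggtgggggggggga

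The second set is shown because regions like these were found mainly through the control male list. It gives 120 bases at the summit of a chromosome 1 region whose sequence is also on the mitochondrial chromosome, 120 bases at the summit of a region on the 4.5S RNA gene, and 3 consecutive units of the tandem repeats in an intron of Stam2 and upstream of Tmem125, each on the plus strand of GRCm38. Capitals mark the 12-base word found most often in that peak.
Gm28439, chr1:24612420-24612539: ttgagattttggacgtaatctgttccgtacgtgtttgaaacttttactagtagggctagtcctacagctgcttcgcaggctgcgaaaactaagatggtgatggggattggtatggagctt
Rn4.5s, chr6:47655014-47655133: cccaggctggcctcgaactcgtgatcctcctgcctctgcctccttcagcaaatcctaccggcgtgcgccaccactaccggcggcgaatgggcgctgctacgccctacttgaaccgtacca
Stam2 intron, chr2:52697766-52697927: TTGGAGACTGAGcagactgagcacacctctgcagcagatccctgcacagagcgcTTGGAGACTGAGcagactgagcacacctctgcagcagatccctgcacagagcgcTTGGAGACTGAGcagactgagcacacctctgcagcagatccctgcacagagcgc
Upstream of Tmem125, chr4:118547957-118548088: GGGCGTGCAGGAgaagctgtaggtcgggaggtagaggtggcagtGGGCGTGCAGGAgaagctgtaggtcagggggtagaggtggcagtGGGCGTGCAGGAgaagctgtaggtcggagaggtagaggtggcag

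Of the 581 core regions, 249 overlapped the control male list only, 263 the VEDS female list only and 69 both short lists. Seen from the short lists, the core took in most of the peaks that were not mainly masked. Among short-list peaks with at most 50% of bases masked, 313 of 363 control male peaks and 326 of 343 VEDS female peaks overlapped a core region. The rule fixed much of this, because such a peak needed only a partner in each long list. Core regions were on every one of chromosomes 1 to 19 and made up between 1.77% of the control female peaks (chromosome 4) and 4.03% (chromosome 7, 57 regions).

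Core regions were not simply the top of a long list. Their rank by −log10 q in the control female list had a median of 2508 and quartiles of 765 and 6462, and ran from 19 to 20707. In the VEDS male list the median was 2282, with quartiles of 799 and 5389. Of the 483 control female peaks on chromosomes 1 to 19 ranked 1 to 500, 97 (20.1%) were core, against 76 of 10869 (0.699%) ranked 10001 to 21176. Peaks shared by both long lists but by no short list, under the same limit on masked bases, numbered 18426 and are used below for comparison. Height and presence in a short list come from the same libraries, so the ranks describe the choice and are no finding.

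**Figure D1:**
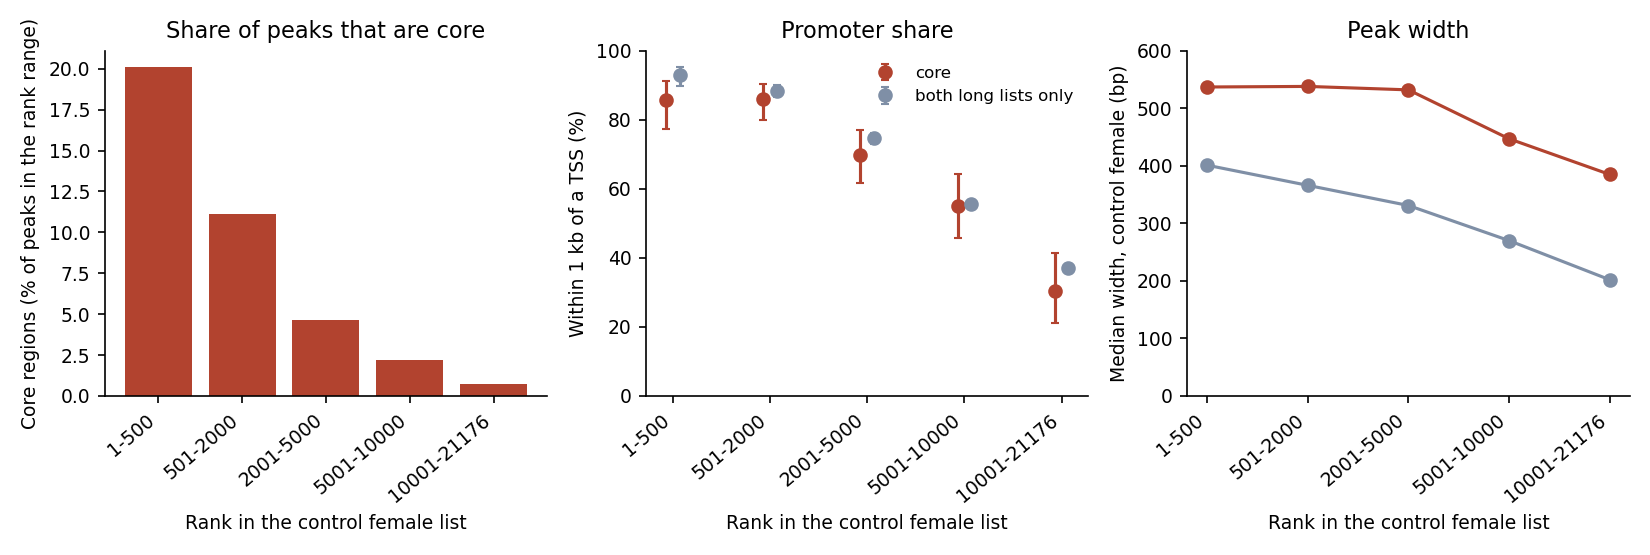
Core regions and peaks in both long lists only, by rank range in the control female list. Left, bars give the percent of all peaks in the range that were core, from 20.1% down to 0.699%. Middle, the percent within 1 kb of a TSS with 95% Wilson intervals. Right, the median width in bp, which was higher for the core in all 5 ranges.

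Core regions were also wider than the comparison peaks at the same rank. The median core width in the control female list was 500 bp, with quartiles of 388 and 620. At ranks 1 to 500 the medians were 537 bp for the core and 401 bp for peaks in both long lists only, and at ranks 10001 to 21176 they were 385 and 202 bp. A wider peak has more bases with which to meet an overlap of 1 bp, so width too was in part set by the rule. The same regions were narrower in the short lists, with median widths of 315 bp in the control male (318 regions), 295 bp in the VEDS female (332 regions) and 683 bp in the VEDS male library.

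Summit distances were taken to the overlapping peak with the nearest summit, so the overlap and this choice keep them short. They were not computed for the comparison peaks. Among the core regions they were shortest between the long lists. The VEDS male summit was a median of 42 bp from the control female summit and within 100 bp of it in 446 regions (76.8%). The control male summit was a median of 99 bp away, and within 100 bp in 162 of 318 regions (50.9%). The VEDS female summit was a median of 124 bp away, and within 100 bp in 40.4% of 332 regions. Those short-list summits rest on a median pileup of 8 and 6.50, against 74 over the core regions in the VEDS male library and 29 in the control female. The overlapping peak had its summit outside the core region in 17 regions for the VEDS male, 31 for the control male and 35 for the VEDS female list, and the pileup given is then that of the overlapping peak.

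The promoter at Ska2, which encodes a subunit of the spindle and kinetochore complex, had a summit pileup of 115 in the VEDS male library, 56 in control females, 9 in control males and 13 in VEDS females. Stat3, a transcription factor activated by cytokines, had 114, 56, 9 and 8 in the same order. Kmt5c, a histone methyltransferase, had 112, 53, 14 and 10. These 3 promoters shared the order seen over the whole core, with the VEDS male library highest and both short-list libraries low. Cic, a transcriptional repressor, had 131, 60, 15 and 8, and Hnrnpc, which binds nascent RNA, had 136, 42, 13 and 10. Zfp143, a factor that itself binds promoters, had 122, 49, 13 and 8, and Prkcsh, a subunit of glucosidase II of the endoplasmic reticulum, had 115, 52, 8 and 9. The pileup is not scaled for depth, so these values order the libraries and not the activity of the promoters.

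The 20 regions of highest mean rank over the long lists among those in both short lists held 13 further regions beside these 7. The genes nearest to 7 of them were Fam72a, Aida, 1110020A21Rik (annotated as the noncoding RNA of a bidirectional promoter, at the phosphatase gene Ppm1b), Atp5g1 (a subunit of ATP synthase), Por (which passes electrons to cytochromes P450), Zfp78 and Kat6b (a histone acetyltransferase). The region at Aida was in an intron, 1582 bp from the nearest TSS. A further 5 were away from protein-coding promoters, near Tmem125, Gm27940, Gm28502, Gm25352 and Rny3. Of these 5, 4 took the 4 highest places. The highest of all was the tandem repeat upstream of Tmem125 (chr4:118547207-118548722, 1516 bp), at rank 14 in the VEDS male, 19 in the control female, 15 in the control male and rank 23 in the VEDS female list.

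**Figure D2:**
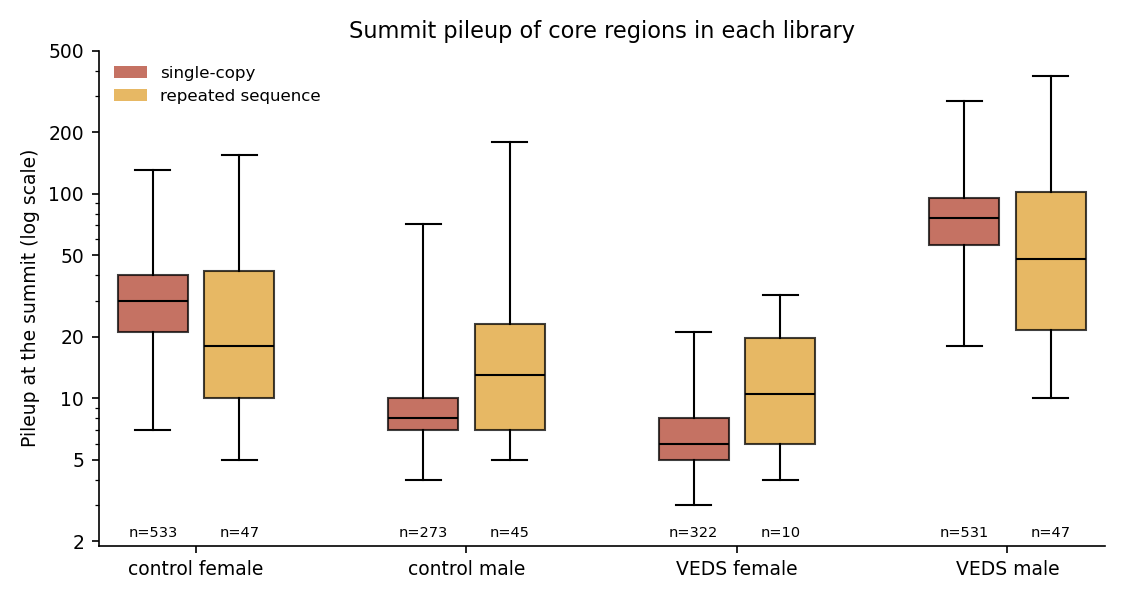
Pileup at the summit of core regions in each library, on a log scale. Boxes give the quartiles and the median, and whiskers the lowest and highest region, for single-copy regions and for regions of repeated sequence, with the number of regions under each box. Single-copy regions had medians of 30, 8, 6 and 76 from left to right, and repeated regions 18, 13, 10.5 and 48.

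Core regions were mostly promoters. Of 581, 402 (69.2%, 95% Wilson interval 65.3% to 72.8%) lay within 1 kb of an annotated TSS (GENCODE vM21) and 350 (60.2%) had a TSS inside the peak. Among peaks in both long lists only, 52.2% (51.4% to 52.9%) lay within 1 kb. This difference was not seen at equal rank: at ranks 1 to 500 the shares were 85.6% for the core and 93.0% for the comparison peaks, at ranks 501 to 2000 86.1% and 88.4%, and at ranks 5001 to 10000 55.1% and 55.5%. The higher promoter share went with the higher ranks of the core. Of the other core regions, 84 were in introns, 86 between genes, 6 in coding exons and 3 in other exons, and 153 (26.3%) lay over 3 kb from any TSS. Windows of 300 bp at the summit were examined for richness in GC (over 50%) and CpG (observed over expected above 0.6). Both held in 343 core regions, 59.0% (55.0% to 63.0%), against 41.3% of peaks in both long lists only. At equal rank the core was higher only at ranks 1 to 500, with 85.6% against 80.4%. It was lower at ranks 501 to 2000 (73.9% and 81.2%) and 2001 to 5000 (56.6% and 64.2%). The same held at ranks 5001 to 10000 (43.0% and 44.6%) and 10001 to 21176 (19.7% and 25.7%). All intervals cover counting error only.

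The gene lists examined held few core promoters. Of 16 genes on a list of chaperone and heat shock genes, all with a control female promoter peak, 3 had a core region within 1 kb. They were Hspa1a (an inducible chaperone), Hsp90b1 (the HSP90 of the endoplasmic reticulum) and Hsph1 (a nucleotide exchange factor for HSP70). Of 17 RNA processing genes, 4 had a core region: Hnrnpa1, Hnrnpc, Srsf2 and Srsf7, which encode RNA-binding proteins that act in splicing. Over all protein-coding genes with a control female peak within 1 kb, 474 of 9582 (4.95%) had a core region, so the counts of 3 of 16 and 4 of 17 stand above that share but rest on few genes and were not tested. Without the VEDS female list the counts were 1 chaperone and 2 RNA processing genes. Hsp90b1 had a summit pileup of 105 in the VEDS male library, 38 in control females and 8 in VEDS females, and no control male peak.

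Ribosomal protein genes had 6 of 75 with a core region, Rpl22, Rpl32, Rpl41, Rps19, Rps2 and Rps25, of which Rps19 alone was in both short lists, with pileups of 94, 42, 11 and 7 in the order used for Ska2. Of 42 clustered histone genes, 3 had a core region, namely Hist2h2ab, Hist2h2ac and Hist2h2be, all at a single region (chr3:96220848-96221482). Of 21 immediate early genes, 1 had a core region, Zfp36, which encodes an RNA-binding protein that shortens the life of mRNA, in the VEDS female list only. No core region was found within 1 kb of the 13 smooth muscle contractile genes with a promoter peak, the 12 matrix genes, the 12 vascular transcription factors, the 13 Notch and TGF-β genes or the 4 ubiquitin genes. In the control female list all these genes had promoter peaks, so their absence from the core does not mean that they were closed. Against the share of 4.95% over all genes with a peak, 0 of 4 to 0 of 13 genes and 1 of 21 (4.76%) are near the background. Without the VEDS female list, 3 ribosomal protein, 0 histone and 0 immediate early genes had a core region.

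Single-copy core promoters carried the NFY word more often than other promoters. Single-copy regions are those in which at most 50% of the 36-base words of the peak occur more than once in the reference. Of 392 single-copy core promoters, 126 had the word in the 300 bp at the summit, 32.1% (27.7% to 36.9%), against 1536 of 9453 promoters in both long lists only, 16.2% (15.5% to 17.0%). At least 2 words were found in 42 core promoters, 10.7%, against 2.74%. The share was 43.6% in promoters of both short lists (24 of 55), 36.9% in those of the control male list only (58 of 157) and 24.4% in those of the VEDS female list only (44 of 180). Over a fixed window from 300 bp upstream to 100 bp downstream of the TSS, which does not use the summit, 34.2% of 368 protein-coding core promoters had the word, against 17.4% of 8699 comparison promoters and 14.1% of the 20757 protein-coding genes of chromosomes 1 to 19 at their outermost TSS. The words in core promoters had a median position 83 bp upstream of the TSS.

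Much of this difference went with rank. In promoters ranked 1 to 500, 40.2% of 82 core (30.3% to 51.1%) and 36.2% of 312 comparison promoters (31.1% to 41.7%) had the word. At ranks 501 to 2000 the shares were 43.9% (35.9% to 52.2%) and 31.8% (29.1% to 34.5%), and these intervals did not overlap. At ranks 2001 to 5000 the order was the other way, 18.9% of 95 against 21.9% of 2050, as it was at ranks 10001 to 21176, with 5.26% of 19 against 8.14% of 3392. At ranks 5001 to 10000 the shares were 22.8% of 57 and 13.1% of 2553. The intervals overlapped in 4 of the 5 ranges. Within 4 ranges of GC content, in contrast, the core share was higher in each, from 48.8% against 17.9% under 55% GC to 23.7% against 12.1% from 65% GC.

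**Figure D3:**
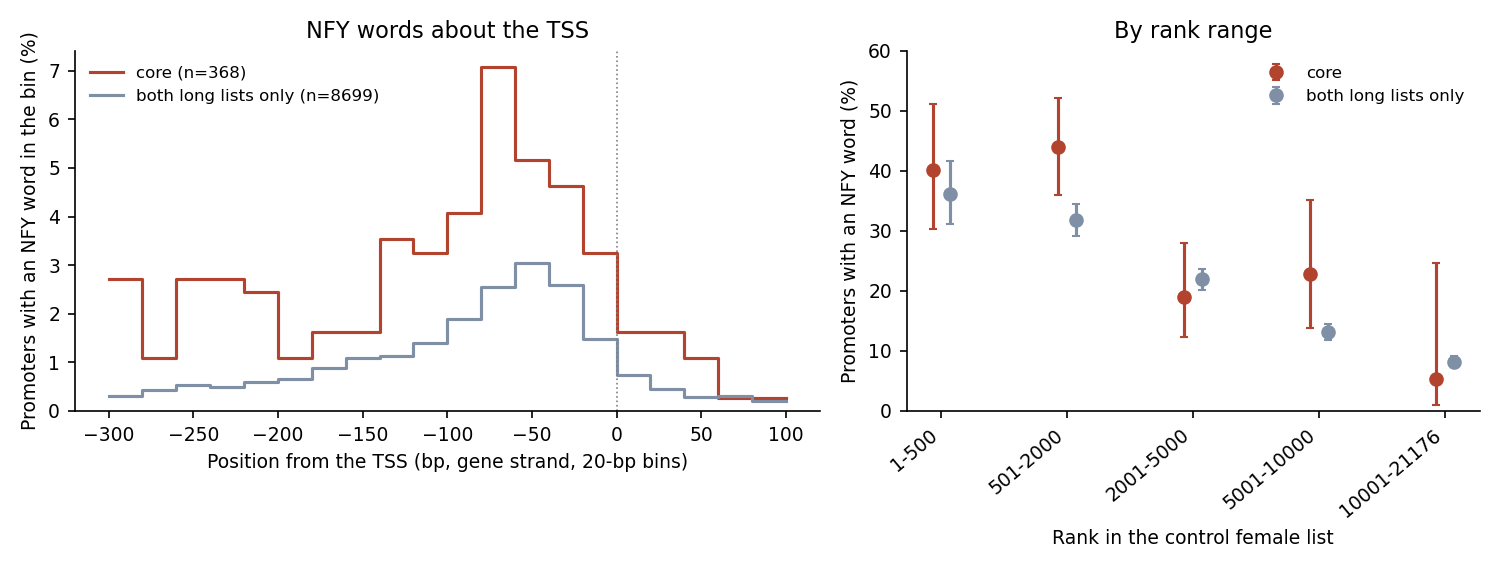
NFY words in single-copy promoters. Left, percent of protein-coding promoters with a word in each 20-bp bin about the TSS, for 368 core promoters and 8699 promoters in both long lists only. Right, percent of promoters with a word in the 300-bp summit window, by rank range, with 95% Wilson intervals. Both groups were lower past rank 2000, and their intervals overlapped in all ranges but 501 to 2000.

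Other promoter words differed by fewer percentage points than the NFY word. The GC box word GGGGCGG, bound by SP and KLF factors, was in 48.5% of single-copy core promoters and 46.4% of comparison promoters. The ETS word CCGGAAG was in 18.4% and 18.9%, and the NRF1 word GCATGCGC in 6.89% and 5.81%. The CRE word TGACGTCA was lower in the core, with 2.81% and 4.22%. The CTCF motif was in 1 of 392 core promoters, 0.255% (0.0450% to 1.43%), against 1.42%. Protein-coding TSS on both strands within 1 kb were found at 93 core promoters, 23.7% (19.8% to 28.2%), against 10.5% (9.88% to 11.1%). The shares lay close together at ranks 1 to 500, with 23.2% against 20.8%, and at ranks 501 to 2000, with 18.7% against 16.5%. They lay further apart below, with 29.5% against 11.5% at ranks 2001 to 5000, 26.3% against 9.52% at 5001 to 10000 and 26.3% of 19 against 7.61% at 10001 to 21176. A wider peak reaches more TSS, so the shares were also compared by width. Under 300 bp they were 13.9% and 7.87%, and at 300 to 499 bp 20.6% and 12.5%. From 500 bp to under 700 bp they were 24.7% and 18.1%, and from 700 bp 34.4% and 17.9%. The core share was thus higher in each width range, and what width contributed was not tested.

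The core regions away from promoters resembled other distal peaks in their AP-1, MEF2 and TEAD motifs. Of 118 single-copy core regions over 3 kb from a TSS, 21 had an AP-1 word (TGAGTCA or TGACTCA, bound by JUN and FOS proteins), 17.8% (11.9% to 25.7%), against 20.5% of 7588 peaks in both long lists only. The MEF2 motif was in 17, 14.4% (9.19% to 21.9%), against 9.95%, and the TEAD word (CATTCCA or CATTCCT) in 24, 20.3%, against 19.5%.

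A distal region in an intron of Nr4a1, an orphan nuclear receptor gene of the immediate early group, had a summit pileup of 94 in the VEDS male library, 35 in control females and 7 in control males, and the other summits were within 33 bp of the control female summit. This region was named after its values were seen.

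Repeated sequence made up a larger share of the core than of peaks in both long lists only. In 48 core regions, 8.26% (6.29% to 10.8%), over 50% of the 36-base words of the peak were found more than once in the reference, against 1.57% (1.40% to 1.76%) of peaks in both long lists only. Over all 20655 control female peaks on chromosomes 1 to 19, with no limit on masked bases, it was 4.65% (4.37% to 4.94%). The core share differed between the short lists through which regions were found. It was 15.3% of regions in the control male list only (38 of 249), 1.14% of regions in the VEDS female list only (3 of 263) and 10.1% of those in both (7 of 69). Whether the control male list was made with another blacklist or another treatment of multi-mapped reads is not given in the sources used here, so the library and its processing cannot be told apart. Only 10 of the 48 lay within 1 kb of a TSS, against 73.5% of the 533 single-copy regions. In 37 of the 48 most of the repeated words recurred within 20 kb, as in a tandem repeat or a local array.

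The 5 widest core regions were all of this kind. The widest, 2798 bp, was in Muc19 (chr15:91907269-91910066), a mucin gene, where 91.4% of words were repeated, mostly 489 bp apart. Next were 2292 bp of mitochondrial-like sequence on chromosome 1, 1999 bp in an intron of Stam2 (chr2:52696739-52698737), where words recurred 54 bp apart in the unit printed above, 1824 bp in a coding exon of Eppk1 (chr15:76103167-76104990), which encodes a protein of plakin repeats, and the region upstream of Tmem125, where the commonest distance was 44 bp. In the Stam2 intron the pileup was only 18 in the control female library, so width there did not go with height.

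Of the 3 mitochondrial-like regions, all on chromosome 1 between 24611638 and 24616115, every 36-base word was also on the mitochondrial chromosome. The printed 120 bases matched chrM:10038-10157 on the minus strand with 0 mismatches. The sequence of the region at Gm28439 overlapped mt-Nd4l and mt-Nd4, and that at Gm10925 overlapped the genes from mt-Co2 to mt-Co3. The region at Gm29216 held a part of mt-Co1. Their pileups, in the order Gm28439, Gm10925 and Gm29216, were 155, 142 and 135 in control females and 56, 59 and 60 in control males. In the VEDS male library the first had 327, and a single peak with a pileup of 376 overlapped both of the others, with its summit in the region at Gm10925. Each had a control male peak and none a VEDS female peak. Of the 18426 peaks in both long lists only, 5 had a word on the mitochondrial chromosome.

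A group of 6 core regions lay within chr6:47654916-47762151. The annotated gene of 4.5S RNA (Rn4.5s, chr6:47654921-47655094) is at the left end of this span. It encodes a small RNA of rodents transcribed by RNA polymerase III. The median copy number of the words of these 6 regions was 16, and in each region at least 94.2% of the words recurred within 20 kb. Of the words of the region at chr6:47685181-47685659, 100% were also within 300 bp of the annotated gene, as were 61.7% and 71.8% of those at chr6:47744132-47744594 and chr6:47752749-47753258. Beyond these and the region on the gene itself, the regions of the group shared no word with that stretch, among them chr6:47760960-47762151. Pileups in the control female library were 45 to 109 over the 6 regions. In the region at chr6:47760960-47762151 the control male pileup, 72, was above the control female pileup, 45, with 108 in the VEDS male library and 22 in the VEDS female. Rn7sk, another gene transcribed by RNA polymerase III, whose RNA holds back the elongation factor P-TEFb, was a core promoter in both short lists, with pileups of 59, 25, 7 and 7 in the order used for Ska2.

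Within regions, repeated and single-copy sequence differed in how the control male library stood to the control female library. The ratio of their pileups had a median of 0.636 (95% interval of the median 0.50 to 0.857) over 44 repeated regions and of 0.250 (0.238 to 0.259) over 273 single-copy regions. It was at or above 1 in 9 repeated regions and 2 single-copy regions. For the VEDS male library the intervals of the 2 groups overlapped, with median ratios of 2.40 (2.28 to 2.73) over 47 and 2.49 (2.44 to 2.54) over 531 regions. For the VEDS female library the medians were 0.240 over only 9 repeated and 0.231 over 322 single-copy regions. A low region enters a short list only if its pileup there is high, so the ratio uses a value that the rule selected on, and the medians are a description. The same holds within ranges of control female pileup, where the control male medians were 0.857 and 0.538 at a pileup of 5 to 15, 0.611 and 0.289 at 16 to 30, and 0.415 and 0.216 from 31, repeated first.

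**Figure D4:**
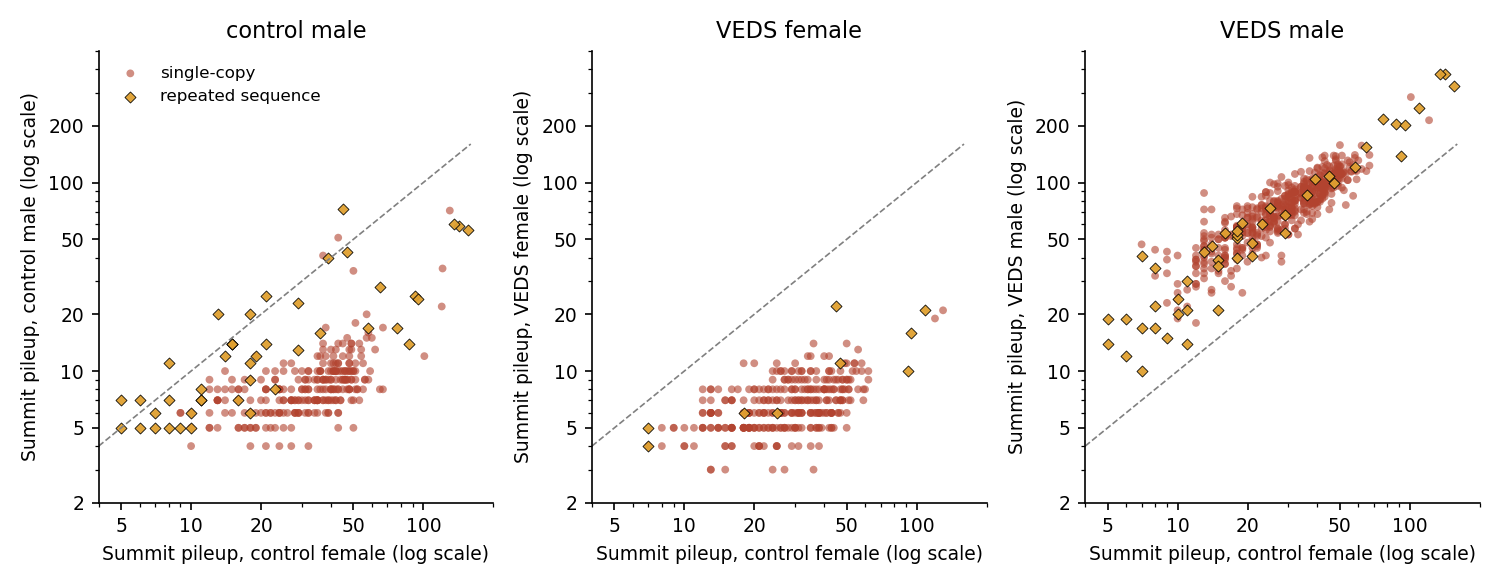
Summit pileup of each core region in the control male, VEDS female and VEDS male library against that in the control female library, both axes on a log scale, with the line of equal pileup dashed. Repeated regions (diamonds) lie above most single-copy regions (circles) of the same control female pileup in the control male panel, with medians of the ratio of 0.636 and 0.250. They lie among them in the VEDS male panel, with 2.40 and 2.49.

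The regions over 3 kb from a TSS and of highest rank were largely of the repeated kind. Of the 10 highest, 8 had over 50% of their words repeated: the region upstream of Tmem125, one near Gm25352 on chromosome 3, one in an exon of Lars2 (a mitochondrial leucyl-tRNA synthetase), one in an intron of Cmss1, one in an intron of D5Ertd579e and 3 of the 4.5S RNA group. The other 2 were near Gm28502 (chr15:75086272-75087030), with 40.5% of words repeated, and near Gm11668 (chr11:109011647-109012077), with 6.06%. The region near Gm28502 had pileups of 130, 71 and 21 in the control female, control male and VEDS female libraries. The promoter region of Gm26917, a noncoding RNA gene, lies on the same stretch of chromosome 17 as a copy of the 18S ribosomal RNA gene (Rn18s-rs5, chr17:39846354-39848202). It had a pileup of 121 in the control female library with a fold enrichment of 2.90, the lowest of the core, and only 2.73% of its words were repeated in the reference. Whether sequence missing from or collapsed in the reference took part in any of these values was not tested.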

How the data were processed

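Nuclei were prepared with a single-cell ATAC kit, and the lists hold 1 aggregate per library. Per the methods, the authors aligned reads to mm10, called narrow peaks with MACS2 with duplicates removed by barcode, and excluded blacklisted regions. The aligner and the threshold are not given in the sources used here. The deposited score is 10 times −log10 q without decimals. The deposited fold enrichment (a ratio of the summit pileup to local background, both with a pseudocount of 1), −log10 p and −log10 q are the authors' values within a library. The −log10 q was used to rank peaks and, in an alternative, as a cut-off for short-list peaks. Total counts of fragments were not used, so depth per library is unknown beyond the pileups.

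The members, gene lists and tests were chosen with earlier results of these data known. For each summit the integer pileup was sought at which a Poisson distribution returns the deposited −log10 p and the deposited fold together, and one was found for 99.2% to 99.9% of peaks. This and the motif search were tested on simulated data. Peaks were annotated with GENCODE vM21, whose GRCm38 is the same build as mm10, and sequence and masking were read from NCBI RefSeq GRCm38. Every 36-base word of a peak was looked up on both strands of the whole reference, unplaced contigs included. MEF2, SRF and CTCF motifs are named only. Motif words can overlap each other, and a match is not a bound site.

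Results at some loci covered by the rule on names are not reported here. No test was run. Shares have 95% Wilson intervals and medians order-statistic intervals, and regions of one library are not replicates. The text names the 20 core regions of highest mean rank among those in both short lists, the 10 highest over 3 kb from a TSS, listed genes with a core region within 1 kb, 3 regions on each side of the mask limit and the 5 widest. The rule set the sequences to summit regions carrying a stated feature, outside UTRs. The tandem repeat units were instead taken from the middle copy of the marked word in the peak, not from the summit. Alternatives covered the masking limit, overlap, −log10 q, TSS distance, window, word length and leaving out each library. The software was Python 3.11.15 with scipy 1.17.1, numba 0.67.0, pandas 2.3.3, numpy 2.4.6 and matplotlib 3.10.9.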

Additional observations from a re-analysis of the deposited data

Results flagged for a closer look

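The medians over core regions, VEDS minus control, had opposite signs in the 2 sexes, which the choice of regions set in part, since every region needed a peak in the control female and VEDS male lists. The medians also cover unlike sets, 581 regions in each of those lists, 332 in the VEDS female and 318 in the control male list. The median peak width, VEDS minus control, was -205 bp in females (295 and 500 bp) and 368 bp in males (683 and 315 bp). The median summit pileup, VEDS minus control, was -22.5 in females (6.50 and 29) and 66 in males (74 and 8). With 1 library for each genotype and sex, the difference between the sexes was not tested, and genotype, sex and the depth of a library cannot be told apart.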

How the results depend on the processing

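Of 429 values recomputed under an alternative, 334 stayed within the counting interval of the value reported (counts within 1.5 times) and 95 did not. Part of the 334 could not differ. Leaving out the VEDS male list returned the same 581 regions, so its values repeat those reported. Gene lists with no core region stayed at 0 throughout, and an alternative that only removes regions cannot raise a count of 0. The core summits in the short lists rest on a median pileup of 8 and 6.50, total fragments are unknown, and no list shows what a deeper library would add. Alternatives on single-copy regions, and all those for the NFY and both-strand promoter shares and the pileup ratios, were chosen after seeing the data. No paired analysis was possible because no test was run. Replicate numbers were given in accession order, and a pairing by sex leaves 1 library for each genotype and sex. The cause of the changes below was not tested unless the alternative itself sets it, as with fewer lists or longer windows.

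With only short-list peaks of −log10 q of at least 5, the core fell to 183 regions, with a median width of 555 bp, median ranks of 1026 (control female) and 1103 (VEDS male), 73.8% within 1 kb of a TSS and 15.8% repeated. Motif shares were then 10.4% for ETS, 2.19% for MEF2, 27.9% for NFY, 5.46% for TEAD, 1.09% for YY1 and 0% for CTCF, and 39.1% of single-copy promoters had an NFY word. The single-copy pileup ratio was 0.265, the summit distances were 80 bp (control male) and 105 bp (VEDS female), and the gene lists kept 1 chaperone, 0 immediate early, 0 histone and 3 ribosomal protein genes. Overlap with both short lists left 69 regions. With no limit on masked bases, 55.6% lay within 1 kb, 49.2% were GC- and CpG-rich, 28.9% repeated, the median ranks were 3474 and 3214, the GC box share 26.5%, NFY 18.2% and YY1 5.77%, and the summit distances 124 bp (control male) and 51 bp (VEDS male).

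With at least 50% of the control female peak overlapped, the median width was 479 bp, the control female rank 2033, the YY1 share 2.24%, the VEDS female summit distance 106 bp, and 2 RNA processing and 0 histone genes remained. With the control female summit inside the other peaks, the median ranks were 1775 and 1634, the YY1 share 1.54%, the summit distances 72 bp (control male) and 86 bp (VEDS female), coding TSS on both strands 19.2%, and no histone gene (0) remained. The share within 1 kb was 62.0% with protein-coding TSS only and 73.5% over single-copy regions, and 73.7% lay within 3 kb.

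In 150-bp windows the shares were 4.13% for AP-1, 8.09% for ETS, 21.3% for the GC box, 2.41% for MEF2, 17.2% for NFY, 2.93% for NRF1, 1.20% for SRF, 5.68% for TEAD and 1.20% for YY1. In 500-bp windows they were 18.2% for ETS, 41.8% for the GC box, 6.20% for MEF2, 27.9% for NFY and 15.1% for TEAD. Over 3 kb from a TSS they were 13.7% for AP-1, 0.654% for CRE, 3.92% for ETS, 5.23% for the GC box, 0% for Kaiso, 11.1% for MEF2, 5.88% for NFY, 0.654% for NRF1, 3.92% for SRF, 16.3% for TEAD and 0% for YY1. Within 1 kb they were 4.23% for AP-1, 17.9% for ETS, 47.3% for the GC box, 1.24% for MEF2, 31.6% for NFY and 4.73% for TEAD.

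Leaving out each library in turn gave 318 (without the VEDS female) to 614 regions, with 332 without the control male, a median width of 500 to 672 bp, median ranks of 1638 to 2564 (control female) and 1748 to 2481 (VEDS male) and a repeated share of 3.01% (without the control male) to 14.2% (without the VEDS female). Without the control female list the regions and widths were those of VEDS male peaks, which gave the 614 regions and 672 bp. In that list the unchanged core had a median width of 683 bp. The ranges were 4.40% to 8.73% for AP-1, 1.57% to 5.72% for MEF2 and 5.97% to 9.64% for TEAD over all core windows. For NFY in single-copy promoters the range was 28.9% to 38.7%. The lowest share of each of these 3 motifs over all core windows, and both lowest ranks, came without the VEDS female, as did the lowest count of each gene list. These lists held 2 to 4 RNA processing, 1 to 3 chaperone, 0 to 1 immediate early, 0 to 4 histone and 3 to 6 ribosomal protein genes.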

Other observations

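The small RNA genes near which core regions lay were few. The nearest TSS belonged to a small RNA in 3 of the 402 core regions within 1 kb of a TSS, 0.746%, against 1.04% of 9613 peaks in both long lists only, and 2 of the 3 were in both short lists (among them Rn7sk). Summits of single-copy core promoters lay a median of 81 bp upstream of the TSS, against 42 bp in promoters of both long lists only, and 155 bp in those of both short lists.

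The YY1 word AAGATGGCG was in 4.59% of single-copy core promoters and 3.54% of comparison promoters. Among repeated core regions beyond those described above, coding exons of Hrnr, Muc6, Plin4 and Gm9573 each held 1, all through the control male list, with control female pileups of 5, 8, 21 and 6. A group of 3 regions at the Dux genes on chromosome 10 (chr10:58223304-58239619) was likewise found through the control male list. The rule on names did not cover these genes, which were chosen after their values were seen.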
